A study of Mus musculus with 12 samples.

Results

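The genes described here encode the luteinizing hormone (LH) receptor and the proteins that turn its signal into cyclic AMP (cAMP) and then into kinase activity and transcription. The set was chosen by gene symbol, with earlier results of these data known but by no threshold on measured values, and holds 36 of the 26214 gene symbols in the count table. The cells were mLTC-1, a Leydig cell line from mouse that grows without limit in culture, and their RNA was read in 12 polyA libraries made by tagmentation. For 6 libraries the cells were kept with MSNBA, named in the labels as a blocker of the sugar transporter Glut5, at 100 µM, and for 6 control libraries with its solvent DMSO, each for 24 h. All libraries come from 1 cell line grown in the same serum-containing medium, and the labels mention no gonadotropin or cAMP analogue in either group.

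Leydig cells make androgens when LH binds its receptor, a G protein-coupled receptor that activates the stimulatory G protein. The stimulatory alpha subunit switches on adenylate cyclases, which make cAMP, while inhibitory alpha subunits oppose them. Cyclic AMP releases the catalytic subunits of protein kinase A from its regulatory subunits, anchoring proteins place the kinase in the cell, and phosphodiesterases end the signal by hydrolysing cAMP. In the nucleus the kinase acts on the CREB family of factors, and in Leydig cells this route is known for raising cholesterol transport and the steroid-forming enzymes.

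Library totals ran from 94179 to 657251 counts in MSNBA and from 59113 to 234225 in controls, a 2.14-fold difference in geometric mean. MSNBA 1 alone held 41.1% of the MSNBA counts. The 36 genes together took from 3653 to 4226 CPM (counts scaled by the library total) in MSNBA libraries and from 3891 to 4295 CPM in controls. All 8 Leydig cell markers were detected, with a summed pooled level of 8410 CPM in MSNBA and 8884 CPM in controls. The 5 adrenal cortex markers summed to 25.0 CPM in MSNBA and 13.2 CPM in controls, with Cyp11b2 at 0 counts. Most of these sums was Akr1b7, at 23.8 and 10.3 CPM. The 6 macrophage markers summed to 10.0 and 13.2 CPM, with Cd14 at 0. Germ cell markers summed to 86.3 CPM in MSNBA and 111.8 CPM in controls, Sertoli cell markers to 67.0 and 89.8 CPM, peritubular and fibroblast markers to 44.4 and 73.6 CPM, and endothelial markers to 8.76 and 13.2 CPM. Nothing in the labels ties the replicates to separate cultures, and p-values therefore measure the spread between these libraries, which may be technical.

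None of the genes of the set that could be tested passed the test for a treatment difference. Of the 36, 11 passed the filter on low counts and were tested: Lhcgr, Mrap, Gnas, Gnai2, Gnb1, Gnb2, Adcy9, Prkaca, Prkar1a, Prkar2a and Akap5. By edgeR's quasi-likelihood test, 0 of the 11 passed an adjusted p of 0.05, where 0.0765% of all 2614 tested genes did. At an unadjusted p under 0.05 there was 1, Gnb1, where 8.95% of all tested genes fell under that value, and limma-voom called 0 of the 11. DESeq2 called 0 of the 8 to which it gave an adjusted p, and gave none to Lhcgr, Adcy9 and Prkar2a. The share at the unadjusted threshold is therefore near the background. For 0 of the 11 genes did the libraries of both groups separate fully, against 0.65% of all tested genes. Log2 fold changes, MSNBA over control, were above 0 for 6 genes and below 0 for 5. Their median was 0.0035, beside -0.0082 for all genes tested. The other 25 genes had too few counts per library, and their counts are given pooled over the 6 libraries of a group.

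**Figure D1:**
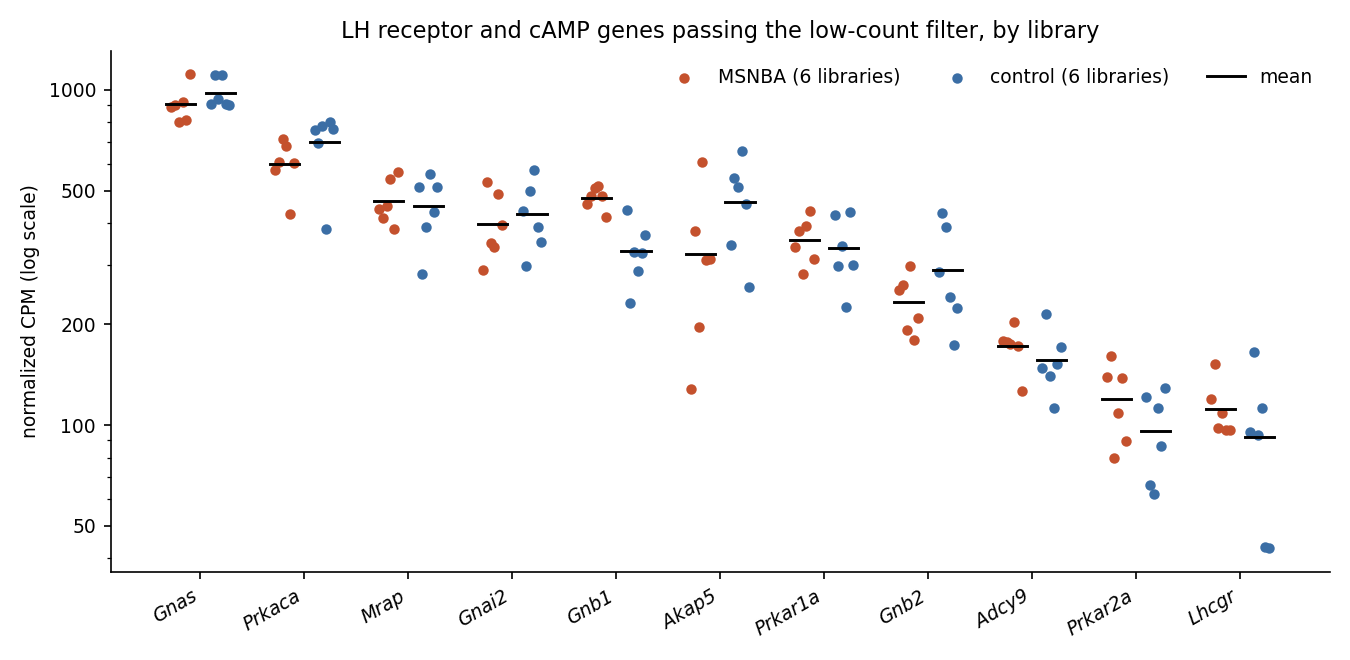
Normalized CPM (log axis) of the 11 tested genes in each library, ordered by mean level, with MSNBA points left of control points and a bar at each mean. For Gnb1, 5 of 6 MSNBA libraries lie above every control, and for all 11 genes, Gnb1 among them, the ranges of the groups overlap.

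The stretches upstream of the annotated starts of 4 of these genes are shown first, since they are the places where factors of this pathway are known to act on other genes. They are from RefSeq on build GRCm38.p6, each 250 bases long and written 5′ to 3′ on the gene's strand up to the base before the start. These starts are not the outermost ends of the loci given below. The Prkar1a and Akap5 windows lie wholly inside the locus span of the gene, and the Lhcgr and Gnb1 windows lie partly inside it. Capitals mark matches to the cAMP response element TGACGTCA and to its core TGACG, searched on both strands (CGTCA on the other); a full element also holds core matches. Lhcgr is shown as the receptor (chr17:88792015-88792264, minus strand), Gnb1 as the gene with the lowest p (chr4:155491111-155491360, plus strand), Prkar1a for the start with a full element (chr11:109650699-109650948, plus strand), and Akap5 for its behaviour with depth (chr12:76324641-76324890, plus strand).
Lhcgr: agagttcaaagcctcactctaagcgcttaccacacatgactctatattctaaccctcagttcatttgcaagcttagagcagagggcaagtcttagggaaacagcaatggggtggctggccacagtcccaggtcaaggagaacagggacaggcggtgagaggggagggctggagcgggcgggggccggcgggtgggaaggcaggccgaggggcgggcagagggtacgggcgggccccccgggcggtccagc
Gnb1: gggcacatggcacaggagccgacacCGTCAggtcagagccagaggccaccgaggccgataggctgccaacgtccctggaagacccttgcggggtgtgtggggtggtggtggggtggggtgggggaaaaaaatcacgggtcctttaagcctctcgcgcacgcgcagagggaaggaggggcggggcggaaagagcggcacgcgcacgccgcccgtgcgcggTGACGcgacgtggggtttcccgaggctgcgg
Prkar1a: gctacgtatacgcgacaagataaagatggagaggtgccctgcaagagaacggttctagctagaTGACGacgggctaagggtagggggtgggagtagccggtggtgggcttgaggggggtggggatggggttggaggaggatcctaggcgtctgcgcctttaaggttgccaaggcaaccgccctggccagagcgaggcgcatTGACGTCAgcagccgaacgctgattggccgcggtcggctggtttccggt
Akap5: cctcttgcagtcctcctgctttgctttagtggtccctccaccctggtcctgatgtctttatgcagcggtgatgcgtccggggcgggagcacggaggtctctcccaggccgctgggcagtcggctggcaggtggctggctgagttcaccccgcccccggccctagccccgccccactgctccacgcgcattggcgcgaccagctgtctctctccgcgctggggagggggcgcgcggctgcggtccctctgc

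Of the 36 genes, 30 had at least 1 upstream window in RefSeq, 60 windows in all. The genes with no entry were Gnai2, Adcy6, Crem, Crtc2, Sik1 and Mrap. The full element was found at 1 of the 30 genes, Prkar1a, at bases -49 to -42 of 1 of its 6 annotated starts, while 1.77% of 27025 genes with a window held it. The core TGACG was found at 13 of the 30 genes, where 19.8% of all genes held it. A gene was counted if any of its windows held a match, and the 30 genes have more windows per gene than all genes do. By window, the core was in 28.3% of the 60 and in 17.8% of all 32851, and the full element in 1.67% and 1.55%. Windows of a gene can overlap, and the same core match then counts more than once, as at Gnas and Prkar1a. The core stood at -31 to -27 before the Gnb1 start shown, inside the locus span, and, on the other strand, at -225 to -221, outside it. Prkaca held it on the other strand at -120 to -116 and at -6 to -2, and Adcy9 on the gene's own strand at -24 to -20. The windows of Lhcgr and Akap5 held no match to it. AAGGTCA, the element read by the steroidogenic factor Nr5a1, was found at 2 of the 30 genes, Adcy7 and Prkar1b, and at 4.70% of all genes (3.33% of the 60 windows and 4.08% of all windows). GGGCGG, the element read by Sp1, was found at 24 of the 30 genes and at 35.4% of all genes, and the Lhcgr window held it 4 times. By window its shares were 55% of the 60 and 32.7% of all. GC content was 63.2% in the Lhcgr window and 69.2% in that of Gnb1. A match is only a stretch of letters and no binding was measured.

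Lhcgr, the LH receptor gene (chromosome 17, 88716384 to 88792059, mm10), was measured in all 12 libraries at low counts, from 8 to 65 in MSNBA and from 2 to 18 in controls. Its normalized CPM, which are counts scaled to a common library size over the tested genes, had a lowest, median and highest value of 96.4, 103 and 152 in MSNBA. The same values in controls were 42.9, 94.4 and 165. All 6 MSNBA libraries lay within the control range, 4 controls lay below all of them and 1 above, and controls 5 and 6, on 2 and 5 counts, were lowest. The means were 112 ± 21.6 CPM in MSNBA and 92.1 ± 46.0 CPM in controls (SD, n = 6 each). The log2 fold change was 0.32 (SE 0.26, edgeR adjusted p = 0.738), with a 95% interval from 0.8675-fold to 1.79-fold. Without control 6 it was 0.12, without control 2 it was 0.49 and without controls 2 and 4 it was 0.59, each with an adjusted p above the threshold (0.530 to 0.935 over the 19 alternatives that gave one; DESeq2 gave none and the stricter filter dropped the gene).

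Mrap encodes a small membrane protein that in mice and humans carries the adrenocorticotropin receptor Mc2r to the cell surface. It was among the genes of the set with most counts, 585 in MSNBA and 254 in controls. Normalized levels ran from 386 through a median of 445 to 567 CPM in MSNBA, and from 281 through 473 to 561 CPM in controls. These ranges overlapped almost fully, and the log2 fold change was 0.0035 (SE 0.16, edgeR adjusted p = 0.998), with a 95% interval from 0.806-fold to 1.25-fold. Mc2r itself had 1 count over the MSNBA group and 0 over the control group, and Mrap2, the gene's paralog, had 4 and 2 counts. A count of 0 over the control group allows a level of up to 5.43 CPM by the exact Poisson 95% interval.

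Gnas, which encodes the stimulatory alpha subunit (chromosome 2, 174284320 to 174346744), had the highest count of the 36 genes, 1147 in MSNBA and 515 in controls. Its normalized CPM ran from 801.5 through a median of 895 to 1111 in MSNBA, and from 900 through 923 to 1108 in controls. Both groups spread over about the same values, with 3 MSNBA libraries below all controls and 1 above. The log2 fold change was -0.11 (SE 0.12, edgeR adjusted p = 0.826), and the 95% interval from 0.788-fold to 1.09-fold was the narrowest of the 11. Exons of Gnas share 13.1% of their bases with a gene on the other strand and 8.83% with the antisense RNA Nespas, and since no strand setting is given, reads of these cannot be told apart from those of Gnas.

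Among inhibitory alpha subunits, Gnai2 was the one with counts enough to test. It measured 399 ± 93.6 CPM in MSNBA and 425 ± 101.5 CPM in controls (SD, n = 6 each), with ranges of 290 to 532 and 298 to 577 CPM. The difference was smaller than either spread (log2 fold change -0.12, SE 0.17, edgeR adjusted p = 0.877). Gnai3 had 76 and 36 counts in MSNBA and controls, a pooled level of 47.6 and 53.0 CPM (95% Poisson intervals 37.5 to 59.5 and 37.1 to 73.3). Gnai1 had 2 and 1 counts. Gnas held 67.8% of the counts of the 4 alpha subunits in MSNBA and 66.1% in controls (exact binomial 95% intervals 65.5 to 70.1 and 62.7 to 69.4), and these intervals overlap. Such pooled intervals cover counting error only.

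Gnb1, which encodes a G protein beta subunit (chromosome 4, 155491300 to 155559269), had the lowest p of the set and ranked 48 of 2614 tested genes by p. Its normalized CPM ran from 417.5 through a median of 481 to 515 in MSNBA, and from 232 through 326 to 439 in controls. In 5 of 6 MSNBA libraries it was above every control, and only MSNBA 6, at 417.5 CPM, fell below control 1, at 439 CPM. The means were 476 ± 35.9 CPM in MSNBA and 330 ± 70.4 CPM in controls (SD, n = 6 each). The log2 fold change was 0.46 (SE 0.15, unadjusted p = 0.00471, edgeR adjusted p = 0.2565), with a 95% interval from 1.11-fold to 1.70-fold that is not adjusted for the number of genes. It did not pass under any of 21 alternatives, in which the value ran from 0.33 to 0.59 and the adjusted p from 0.126 to 0.550. The genome holds processed pseudogenes named after Gnb1, and how reads shared with them were counted is not known. The same holds for Prkaca, Gng5 and Atf1.

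Gnb2, the other beta subunit of the set, had normalized CPM of 179 to 298 in MSNBA (median 231) and 173 to 430 in controls (median 263). All MSNBA libraries lay within the control range, and the log2 fold change was -0.33 (SE 0.19, edgeR adjusted p = 0.5895). As a share of the counts of both beta genes, Gnb1 held 67.1% in MSNBA and 55.7% in controls (exact binomial 95% intervals 64.0 to 70.2 and 50.35 to 61.0). By library this share was 64.3%, 64.8%, 72.5%, 63.3%, 72.9% and 66.7% in MSNBA 1 to 6. In controls 1 to 6 it was 60.6%, 35.0%, 45.7%, 54.5%, 65.2% and 62.3%. The lowest controls, 2 and 3, rest on 40 and 46 counts of both genes, control 5 lies inside the MSNBA range, and the share was looked at by library after the values of both genes had been seen. Gng5, a gamma subunit gene with a named processed pseudogene, had 108 and 45 counts, a pooled 67.6 CPM in MSNBA and 66.2 CPM in controls.

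**Figure D2:**
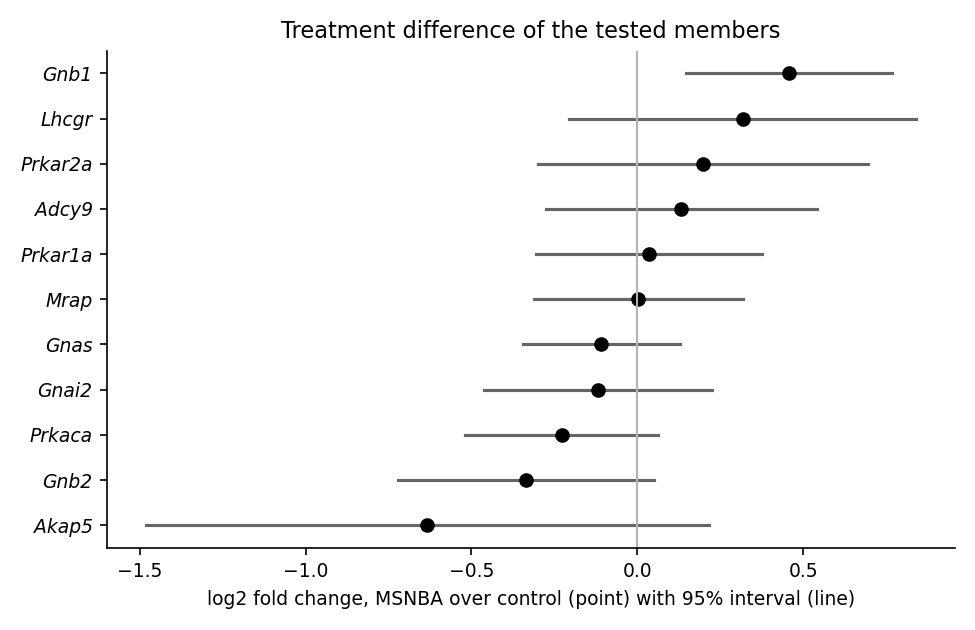
Log2 fold change, MSNBA over control, of the 11 tested genes (points) with 95% intervals (lines) from edgeR. The interval of Gnb1 lies above 0 before adjustment for 2614 genes, and those of the other 10 genes include 0; that of Akap5, from -1.48 to 0.22, is the widest.

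Adenylate cyclases make cAMP, and Adcy9 was the one of the 4 in the set that could be tested. It measured 172 ± 24.9 CPM in MSNBA and 157 ± 34.6 CPM in controls (SD, n = 6 each). MSNBA libraries spanned 127 to 203 CPM, inside the control span of 112 to 215 CPM, and the log2 fold change was 0.13 (SE 0.20, edgeR adjusted p = 0.887). Adcy3 had 41 and 14 counts in MSNBA and controls, 25.7 and 20.6 CPM pooled, and 22.1% of its exon bases are shared with Cenpo on the other strand. Adcy6 had 14 counts in each group, which is 8.76 CPM in MSNBA and 20.6 CPM in controls. The pooled ratio of Adcy6 was 0.425 (95% counting interval 0.188 to 0.962), and its counts per library were 1 to 5 in MSNBA and 1 to 4 in controls. A pooled ratio below 1 was common among the genes too low to test, and such intervals were not counted over all genes. Without the low-count filter the log2 fold change of Adcy6 was -1.08 (SE 0.60, edgeR adjusted p = 0.630). Adcy7 had 12 and 8 counts. Adcy9 held 76.9% of the counts of the 4 cyclases in MSNBA and 70.0% in controls, with overlapping intervals (71.6 to 81.6 and 61.0 to 78.0).

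Protein kinase A is built from catalytic and regulatory subunits. Prkaca, the main catalytic subunit gene (chromosome 8, 83972978 to 83996444), measured 601 ± 98.8 CPM in MSNBA and 697 ± 157 CPM in controls (SD, n = 6 each). Its lowest, median and highest values were 427, 606 and 711 CPM in MSNBA and 385, 760 and 802 CPM in controls. Of the controls, 4 lay above every MSNBA library and control 4, with 24 counts, lay below all of them. The log2 fold change was -0.23 (SE 0.14, edgeR adjusted p = 0.632). Prkacb, the other catalytic subunit gene, had 92 and 46 counts in MSNBA and controls, 57.6 and 67.7 CPM pooled. Prkaca held 89.4% of the counts of both catalytic genes in MSNBA and 89.3% in controls.

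The type I regulatory subunit Prkar1a (chromosome 11, 109649023 to 109669663) measured 357 ± 55.6 CPM in MSNBA and 337 ± 80.4 CPM in controls (SD, n = 6 each). Values reached from 283 to 434 CPM in MSNBA and from 224.5 to 433 CPM in controls, and the log2 fold change was 0.03 (SE 0.17, edgeR adjusted p = 0.973). The type II subunit Prkar2a measured 119 ± 31.6 CPM in MSNBA, from 79.8 to 160 CPM, and 96.3 ± 28.6 CPM in controls, from 62.4 to 129 CPM. In 3 MSNBA libraries Prkar2a was above all controls and in 2 controls it was below all MSNBA libraries, a log2 fold change of 0.20 (SE 0.25, edgeR adjusted p = 0.854). Prkar2b had 60 and 21 counts, 37.5 CPM in MSNBA and 30.9 CPM in controls, and Prkar1b had 5 and 4 counts. Prkar1a held 66.6% of regulatory counts in MSNBA and 69.7% in controls (95% intervals 62.8 to 70.2 and 63.9 to 75.2). These intervals overlap.

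No phosphodiesterase gene of the set had counts enough to test. Pde8b and Pde8a, which encode enzymes with high affinity for cAMP, had 61 and 45 counts in MSNBA and 29 and 20 in controls. Pooled, Pde8b measured 38.2 CPM in MSNBA and 42.7 CPM in controls, and Pde8a 28.2 and 29.4 CPM. Together these were most of the counts of the 5 phosphodiesterases of the set. Pde4a, of the cAMP-specific family that many inhibitors target, had 3, 2, 3, 1, 4 and 0 counts in MSNBA 1 to 6. In controls 1 to 6 it had 3, 1, 2, 2, 2 and 6 counts, in libraries that were mostly shallower. Its pooled level was 8.13 CPM in MSNBA and 23.5 CPM in controls, a ratio of 0.345 (95% counting interval 0.153 to 0.766). Without MSNBA 1 the ratio was 0.451. Most of the 25 genes below the low-count filter had a pooled ratio below 1. How often such an interval leaves out 1 over all genes was not counted. Without the low-count filter the edgeR value of Pde4a was -1.32 on the log2 scale, with an SE of 0.59 and an adjusted p of 0.602 (0.0241 unadjusted), in a fit that moved the median of the genes of the reported test to 0.14. Pde4b had 7 and 3 counts and Pde4d 3 and 4.

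**Figure D3:**
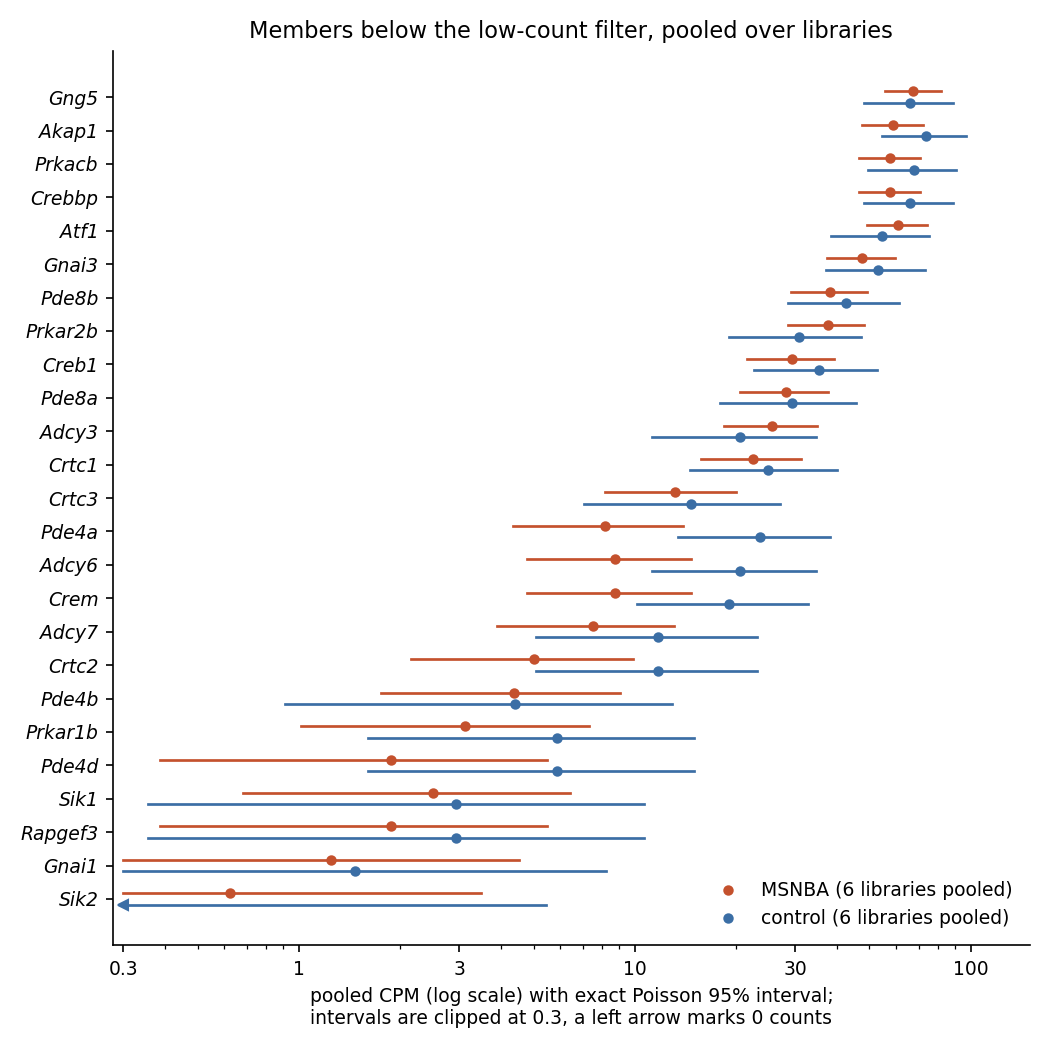
Pooled CPM (log axis) of the 25 genes below the low-count filter, MSNBA above control in each row, with exact Poisson 95% intervals that cover counting error only. Gng5 lies at 67.6 CPM in MSNBA and 66.2 CPM in controls. Most of the 25 genes lie lower in MSNBA, among them Pde4a, Adcy6, Crem and Crtc2, on 13, 14, 14 and 8 counts there. Others, such as Adcy3, Prkar2b and Atf1, lie higher.

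Of the factors that kinase A acts on, Atf1 had 97 and 37 counts in MSNBA and controls, 60.7 and 54.4 CPM pooled, and Creb1 had 47 and 24 counts, 29.4 and 35.3 CPM. Crem, whose locus also gives a short cAMP-induced repressor form, had 14 and 13 counts, 8.76 CPM in MSNBA and 19.1 CPM in controls. Its pooled ratio of 0.458 had a counting interval that includes 1 (0.200 to 1.06). Crebbp, a histone acetyltransferase that binds phosphorylated CREB, had 92 and 45 counts, 57.6 and 66.2 CPM. For the CREB-regulated coactivators, Crtc1 had 36 and 17 counts, Crtc3 21 and 10, and Crtc2 8 in each group. The salt-inducible kinases, which hold these coactivators in the cytoplasm, were near the limit of detection: Sik1 had 4 and 2 counts, and Sik2 had 1 in MSNBA and 0 in controls. Sik3, outside the set, had 34 and 14 counts. Rapgef3, the cAMP-activated exchange factor for Rap1 also named Epac1, had 3 and 2 counts, and its paralog Rapgef4 had 26 and 15.

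A-kinase anchoring proteins bind the regulatory subunits. Akap5 (chromosome 12, 76324617 to 76334517), known from neurons for holding kinase A, calcineurin and protein kinase C at the membrane, had the largest fold change of the 11 and also the widest interval. Its normalized CPM in MSNBA 1 to 6 were 128, 380, 196, 610, 310 and 313. In controls 1 to 6 they were 344, 546, 515, 657, 455 and 257. MSNBA 1 and 3, the deepest libraries, lay below all controls, and the other MSNBA libraries lay within the control range. The log2 fold change was -0.63 (SE 0.38, edgeR adjusted p = 0.637), with a 95% interval from 0.358-fold to 1.16-fold. Without MSNBA 1 it was -0.39, and the pooled ratio was 0.748, against 0.574 with it. With the replicate number as a block the adjusted p was 0.0883, and over all alternatives it ran to 0.964.

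The level of Akap5 moved with library depth. Its raw counts were 42 to 70 in MSNBA and 21 to 65 in controls, although library totals differed by up to 11.1-fold. In a model with treatment and the log2 library total, its log2 normalized CPM changed by -0.67 for each doubling of depth (SE 0.09, edgeR adjusted p = 1.04e-06). The slope was -0.78 within MSNBA, -0.47 within controls and -0.74 without MSNBA 1 and control 5, the libraries farthest from the median depth. With depth in the model the log2 fold change of Akap5 for treatment was 0.05 (SE 0.19, edgeR adjusted p = 0.964). It was the only one of the 11 genes with a depth slope past the adjusted threshold, against 4.09% of all tested genes, and 10 of the 2614 genes had a lower slope. In the other 10 genes the slope ran from -0.18 (Gnai2) to 0.11 (Prkar2a), with a log2 fold change for Gnb1 of 0.37 (SE 0.17, edgeR adjusted p = 0.550) in that model. Akap1, which anchors the kinase at mitochondria, had 94 and 50 counts, 58.8 CPM in MSNBA and 73.6 CPM in controls.

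**Figure D4:**
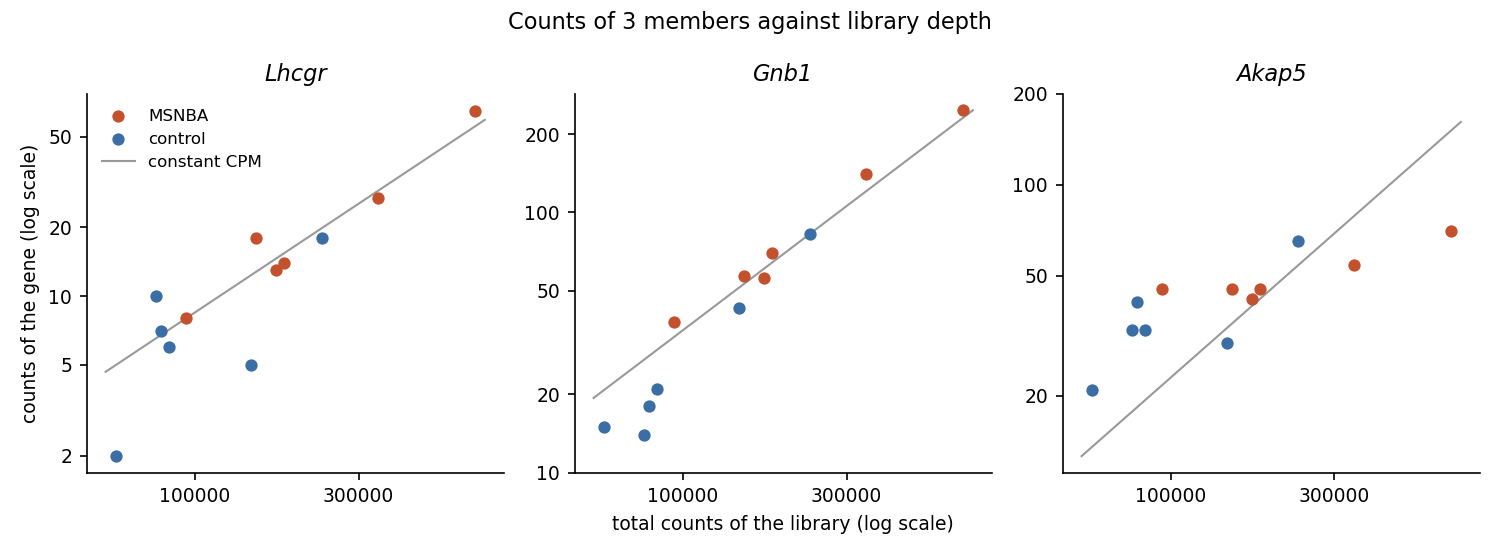
Raw counts of Lhcgr, Gnb1 and Akap5 (log axis) against the total counts of the library (log axis), 1 point per library, with a line of constant CPM. Counts of Gnb1 and Lhcgr rise with depth along the line. Those of Lhcgr scatter more, with controls 5 and 6 well below it. Counts of Akap5 stay between 21 and 70 from the shallowest to the deepest library.

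To order the genes by level, pooled CPM over all 12 libraries were divided by transcript length (the median of GENCODE transcripts tied to a RefSeq mRNA). Per kb, Mrap stood at 368 CPM, Prkaca at 277, Gnas at 236 and Gnai2 at 137. Gng5, Gnb1 and Gnb2 stood close together at 113, 113 and 107 CPM per kb, followed by Prkar1a at 80.6 and Akap5 at 34.4. Lhcgr, with a long transcript, stood at 12.4 CPM per kb, between Prkacb at 15.0 and Prkar2b at 11.3. Adcy9 was at 28.4, against 5.32 for Adcy3, and the lowest were Rapgef3, Sik1, Gnai1 and Sik2, each under 1 CPM per kb. Without the division by length the order began with Gnas, Prkaca, Mrap and Gnb1. If molecules were counted from a single end, as the table's name allows, counts would not scale with length, and the order would then be the one by counts. Between both orders Crem stood at rank 19 per kb and 27 by counts, Gng5 at 5 and 12, Crebbp at 22 and 15, and Lhcgr at 16 and 11.

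Other genes of the pathway were counted over 4 lists, and 0 passed the adjusted threshold in each. The genes named from a list are those of lowest p. Of 54 other G protein, cyclase, kinase A and phosphodiesterase genes, 6 were tested, with a median log2 fold change of -0.12 and 0 at an unadjusted p under 0.05. Gnaq, the alpha subunit that activates phospholipase C, measured 97.1 ± 19.7 CPM in MSNBA and 132.5 ± 28.3 CPM in controls (SD, n = 6 each; log2 fold change -0.38, SE 0.23). Gnb5 was at 0.43 (SE 0.28) and Gna11 at -0.29 (SE 0.23). Of 27 regulators of receptors and G proteins, 3 were tested: Cyth2 at 0.38 (SE 0.24), Arf6 at 0.23 (SE 0.17) and Grk6 at -0.05 (SE 0.21), with 0 at an unadjusted p under 0.05. Singled out after their counts were seen, the arrestin genes Arrb1 and Arrb2, which silence activated receptors, had 34 and 18 counts in MSNBA and 12 and 12 in controls. Of 20 other anchoring proteins, Ezr was tested, with 199 ± 25.7 CPM in MSNBA and 277 ± 52.3 CPM in controls (SD, n = 6 each; log2 fold change -0.40, SE 0.18, unadjusted p = 0.0275, edgeR adjusted p = 0.452).

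Of 40 genes that cAMP is known to raise in various cells, 10 were tested, 5 with a log2 fold change above 0 and 5 below, with a median of 0.04. At an unadjusted p under 0.05 there were 2. Insl3, a Leydig cell peptide hormone gene and 1 of these, measured 1304 ± 199 CPM in MSNBA and 1073 ± 120 CPM in controls (SD, n = 6 each), with a log2 fold change of 0.28 (SE 0.12, edgeR adjusted p = 0.401), and Cyp11a1, the cholesterol side-chain cleavage gene, had one of -0.21 (SE 0.11, edgeR adjusted p = 0.566). Of the untested genes of this list, singled out after their counts were seen, Nr4a1 had 14 and 4 counts in MSNBA and controls, Fos 9 and 3, and Per1 37 and 9. Pooled, these were 8.76 and 5.885 CPM, 5.63 and 4.41 CPM, and 23.15 and 13.2 CPM. Others went the other way, among them Cebpb at 58.8 and 86.8 CPM, Dusp1 at 10.0 and 14.7 CPM, and Nr4a3 on 1 and 4 counts.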

How the data were processed

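PolyA RNA was sequenced in 12 libraries, and the authors deposited raw, unnormalized counts by gene symbol in 1 table. BWA 0.7.4.4 and mm10 are named in the submitters' processing notes. The table's name points to molecular identifiers on RefSeq genes; no source used here gives the counting program or strand. Library totals (59113 to 657251) limit precision.

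Genes were filtered by filterByExpr, scaled by TMM and tested by edgeR 4.0.16 (R 4.3.3; robust quasi-likelihood, treatment only, two-sided, Benjamini-Hochberg over 2614 genes, threshold 0.05), which was tested on simulated data. The standard error is the fold change over the square root of F. Pooled CPM are over full totals, with exact Poisson, conditional binomial (ratios) and binomial (shares) intervals at 95%. Members and lists were chosen with earlier results of these data known; all 36 members are reported, then up to 3 tested genes of each list by lowest p, of which 1 is not reported here. Mc2r, Mrap2, Sik3, Rapgef4, Arrb1, Arrb2, Nr4a1, Fos, Per1, Cebpb, Dusp1 and Nr4a3 were added after their counts were seen. Alternatives used DESeq2 1.42.0, limma 3.58.1 (voom), other scaling and filters, a block, depth as a covariate and libraries left out. Upstream windows are from RefSeq (GRCm38.p6), and all 36 loci overlap between RefSeq and GENCODE M21. Across 30 within-group pairs of libraries, chi-square over its degrees of freedom was 1.16 to 2.08, so none was counted as a duplicate.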

Additional observations from a re-analysis of the deposited data

Results flagged for a closer look

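Of 22 sets of 6 libraries examined for a library standing apart, 1 held one, where chance gives about 1 in 20 sets. Prkaca measured 385 CPM in control 4, on 24 counts, and the next lowest control had 695 CPM. In MSNBA Prkaca ran from 427 to 711 CPM. Without control 4 the log2 fold change of Prkaca was -0.34, against -0.23 with it, and did not pass. The part of this library in the result was otherwise not tested.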

How the results depend on the processing

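Under each of 21 alternatives, 0 of the genes of the set that were tested in it were called. These were 36 without the low-count filter, 8 with an adjusted p by DESeq2, 9 with the stricter filter, which dropped Lhcgr and Prkar2a, and 11 to 16 in each of the others. Over all genes, edgeR called 0 higher and 2 lower. With no filter on low counts there were 8 higher and 7 lower, 2 higher and 4 lower by DESeq2 (which gave an adjusted p for part of the genes), and 4 higher without controls 2 and 4. The count lower was 1 with the stricter filter and 0 by limma-voom and with library depth as covariate. With 1 library left out, it ran from 0 to 5 for lower genes (0 without MSNBA 1, 2, 3, 5 or 6 or control 4, 5 or 6, 1 without control 3, 4 without MSNBA 4 and 5 without control 1) and from 0 to 1 for higher genes (1 without control 2). The cause was not tested.

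Signs turned for 5 of the 11 genes, among them Akap5, whose value of -0.633 was the farthest from 0. Mrap was -4.6e-05 with RLE factors, -0.0060 with the stricter filter, -0.01034 by limma-voom, -0.02122 with depth and -0.04374 without controls 2 and 4, and ran from -0.08752 to 0.05566 with 1 library left out. Prkar1a was -0.09237 without controls 2 and 4, and ran from -0.04541 to 0.1511 with 1 left out. Without the low-count filter Gnas was 0.04118 and Gnai2 0.02255, in a fit whose median for the reported genes was 0.14, against -0.0082, so these are below that median. With depth as covariate Gnai2 was 0.06303 and Akap5 0.05144.

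Same-number libraries of the groups did not pair throughout: the correlation of their deviations ran from -0.23 to 0.48 and passed 0.1 in 3 of 6. It was highest for replicate 1, the only number whose libraries were each other's best match. MSNBA 2 and control 3 were also each other's best match, and so were MSNBA 6 and control 2. Pairing by a layout other than replicate number was not tested. The replicate block gave 3 calls over all genes, against 2, and 0 among the 11 genes of the set in that fit. Libraries were thinned to 59113 counts in a single random draw. Pde4a then had a count in 2 MSNBA and 6 control libraries, against 5 and 6 before. It had 0 to 4 counts per MSNBA library and 1 to 6 per control before thinning, so another draw can differ. Other low-count genes of the set changed too. Crtc2 had a count in 0 MSNBA and 4 control libraries, against 4 and 4 before. For Adcy3 it was 6 and 2, against 6 and 4.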

Other observations

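Akap5 was not alone in having counts that differed less than library depth. Over all 2614 tested genes the log2 level changed with depth at an adjusted p under 0.05 (edgeR) in 107 genes, and in 92 of these it was lower in deeper libraries. The median slope was 0.0046. Among the 10 genes with a lower slope than Akap5 were Kif3a, with 43 to 175 counts per library, Tlcd5, with 27 to 66, Timm22, with 68 to 231, and Alb, the liver albumin gene, with 8 to 22, while totals differed by 11.1-fold. These genes were singled out after their values were seen, and what sets their counts was not tested.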
